A study of Mus musculus with 9 samples.

Results

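MC38 is a mouse cell line labelled as colon adenocarcinoma, which grows as an attached culture and forms tumours in C57BL/6 mice. The subject here is its untreated state, described over all 16509 genes that the deposited expression table lists by Entrez identifier and symbol. The members were the 3 control libraries (Ctrl), taken by their label from the 9 libraries of the series. The other 6 libraries, from cells given Cu-Cys or Cadict, were not used. The sample labels give the Ctrl treatment as DMSO, while a figure legend of the study gives PBS for these RNA-seq controls, so the vehicle is stated differently in these sources. All Ctrl cells were the same line in RPMI medium with fetal bovine serum, and polyadenylated RNA was sequenced. The labels do not say that the 3 libraries came from separate cultures, so the spread between them may be technical.

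A cultured tumour line expresses several programmes at the same time: the housekeeping transcripts of any growing cell, a set of lineage genes kept from or acquired since its tissue of origin, and the receptors and presentation genes through which it meets its surroundings. Colon epithelium is marked by simple keratins, the adhesion proteins Epcam and E-cadherin, tight junction claudins and the intestinal factors Cdx1 and Hnf4a. Vil1, a protein of the brush border, marks it too. Mesenchymal cells carry the intermediate filament vimentin, matrix proteins such as collagens and Sparc, and the transcription factors Snai1, Snai2, Twist1, Twist2, Zeb1 and Zeb2. Immunotherapy studies use MC38 widely, which makes its antigen presentation and checkpoint ligands of interest. The study itself treats MC38 as a tumour with high microsatellite instability, and 1 of its agents carries a peptide directed at the epidermal growth factor receptor Egfr.

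Levels are given as TPM, the transcript abundance scale of RNA sequencing that divides each gene's reads by its length so that different genes can be set side by side. Values are the mean ± SD of 3 libraries unless each library is named. A gene was counted as expressed at a mean of at least 1 TPM. The counts of the libraries summed to 18154400, 18293056 and 18176102, so a count of 0 in a library allows up to 3 counts, which is 0.164 to 0.165 CPM, counts scaled to library size. These limits cover counting error only. A library held at least 1 count for between 13919 and 13988 genes. By Pearson's r of log2 TPM no Ctrl library stood apart, at 0.998 for each pair. This r was computed across genes, which are not independent replicates, and it can miss small shifts between libraries.

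The promoters of 4 genes are shown because these genes mark the contrasts that follow: Vim and Krt8 encode the intermediate filament proteins of mesenchymal and simple epithelial cells, and Erbb2 and Egfr encode related receptors. Their levels were 2919 ± 58.8, 0.170 ± 0.101, 23.6 ± 1.5 and 0.0367 ± 0.0404 TPM. The sequences are the RefSeq windows of assembly GRCm38.p6, from 250 bases before to 50 bases after the start, the first window listed for each gene, with CG dinucleotides in capitals.
Vim (chr2:13574061-13574360, plus strand): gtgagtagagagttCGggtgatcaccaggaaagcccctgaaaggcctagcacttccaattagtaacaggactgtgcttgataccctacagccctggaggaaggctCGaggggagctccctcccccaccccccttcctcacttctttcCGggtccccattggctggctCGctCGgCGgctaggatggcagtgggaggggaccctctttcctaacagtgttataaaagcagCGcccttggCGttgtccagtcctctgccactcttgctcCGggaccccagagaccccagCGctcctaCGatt
Krt8 (chr15:102004293-102004592, minus strand): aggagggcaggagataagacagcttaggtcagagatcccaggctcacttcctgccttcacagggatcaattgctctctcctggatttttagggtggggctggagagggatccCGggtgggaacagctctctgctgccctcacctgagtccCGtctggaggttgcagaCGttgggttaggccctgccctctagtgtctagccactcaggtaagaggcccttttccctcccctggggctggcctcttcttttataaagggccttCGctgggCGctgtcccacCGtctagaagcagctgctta
Erbb2 (chr11:98412234-98412533, plus strand): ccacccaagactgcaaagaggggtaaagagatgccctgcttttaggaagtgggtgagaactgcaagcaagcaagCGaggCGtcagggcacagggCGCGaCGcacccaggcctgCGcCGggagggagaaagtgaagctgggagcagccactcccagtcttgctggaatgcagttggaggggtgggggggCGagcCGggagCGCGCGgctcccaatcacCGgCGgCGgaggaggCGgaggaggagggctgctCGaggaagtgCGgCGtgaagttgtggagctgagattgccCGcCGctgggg
Egfr (chr11:16751953-16752252, plus strand): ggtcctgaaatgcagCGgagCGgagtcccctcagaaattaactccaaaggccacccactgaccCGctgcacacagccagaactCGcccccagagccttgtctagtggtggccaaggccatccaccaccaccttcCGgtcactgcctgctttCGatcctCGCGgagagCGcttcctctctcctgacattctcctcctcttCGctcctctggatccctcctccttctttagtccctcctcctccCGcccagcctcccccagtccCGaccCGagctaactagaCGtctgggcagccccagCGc
The windows held 11, 6, 21 and 15 CG dinucleotides, against a median of 7 over the 27025 genes with a promoter in that table. The letters TATAAA, searched on both strands, were in the Vim and Krt8 windows and in 14.2% of all promoters. The letters GGGCGG, also searched on both strands, were in the Egfr window alone of these 4 and in 35.9% of all promoters. Egfr, listed at or near 0 in every library, had more CG dinucleotides in its window than Vim. These matches describe letters in a window and were not tested against expression.

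Of the 16509 genes, 11243 (68.1%) reached a mean of 1 TPM, and 11055 did so in every library. This 68.1% is the background for the number of expressed members in each gene list. Between these and silence lay 3709 genes, 22.5% of the table, which had some counts but less than 1 TPM. The count was 0 in every library for 1557 genes (9.43%), and it was at most 3 in every library for 3623 genes (21.9%). The median gene was at 10.2 TPM, and the median expressed gene at 24.4 TPM. The plot of gene levels shows a main peak between 10 and 100 TPM, which held 6631 genes, a long flat shoulder under 1 TPM, and the group at 0. A small number of genes held a large share of the transcripts: 140 genes at 1000 TPM or more (0.848% of the table) held 37.4% of all TPM, and 347 genes held 50%.

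**Figure D1:**
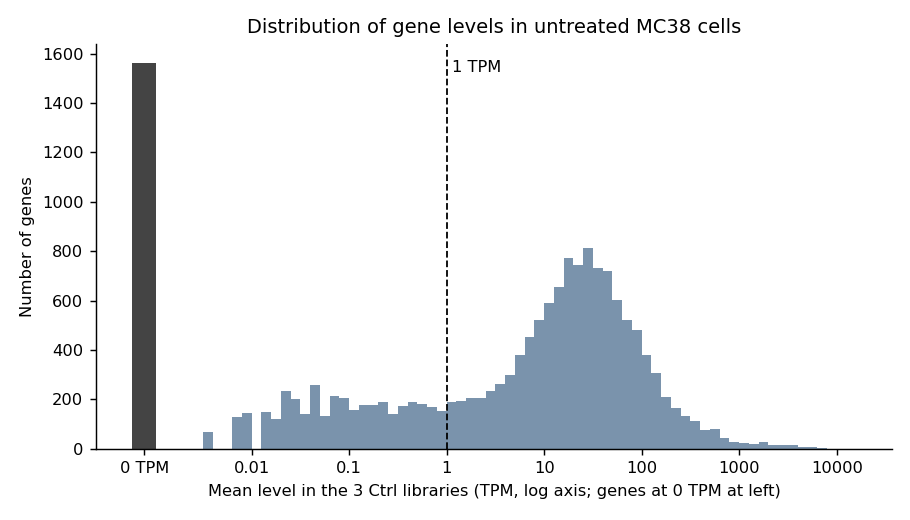
Number of genes (vertical axis) by mean level over the 3 Ctrl libraries in TPM (horizontal log axis), with genes at a mean of 0 TPM as the dark bar at left and the 1 TPM limit as a dashed line. The main peak lies between 10 and 100 TPM, with 6631 of 16509 genes, and 1561 genes have a mean TPM of 0.

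The most abundant transcript was Eef1a1, the elongation factor that brings aminoacyl-tRNA to the ribosome, at 12135, 11904 and 12654 TPM in replicates 1 to 3, or 1.22% of all TPM. Rps2, a protein of the small ribosomal subunit, followed at 9087, 9432 and 9268 TPM. The third was S100a4, a small calcium-binding protein known for its expression in motile and mesenchymal cells, at 7439, 7683 and 8094 TPM. S100a11, of the same family, was the fifth at 7270 ± 124 TPM. Ribosomal protein genes were 11 of the 20 most abundant and 57 of the 100 most abundant. The 83 ribosomal protein genes in the table together held 20.7% of all TPM, and 79 of them were at 100 TPM or more.

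The remaining members of the 20 were the cyclophilin Ppia at 5581 ± 41.1 TPM, the glycolytic enzyme Gapdh at 5263 ± 135 TPM, the cytoskeletal actin Actg1 at 5216 ± 95.6 TPM, the chaperones Hspa8 at 5125 ± 108 TPM and Hsp90ab1 at 4905 ± 42.2 TPM, and the galactoside-binding lectin Lgals1 at 4428 ± 179.9 TPM. The 20 genes held 12.1% ± 0.266 of all TPM, and the 100 most abundant held 32.4% ± 0.6. In the plot of these 20 genes, the points of neighbours often cross: Gapdh spanned 5121 to 5391 TPM and Rpl12, the next gene, 4969 to 5585 TPM, so their order was not larger than the spread.

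**Figure D2:**
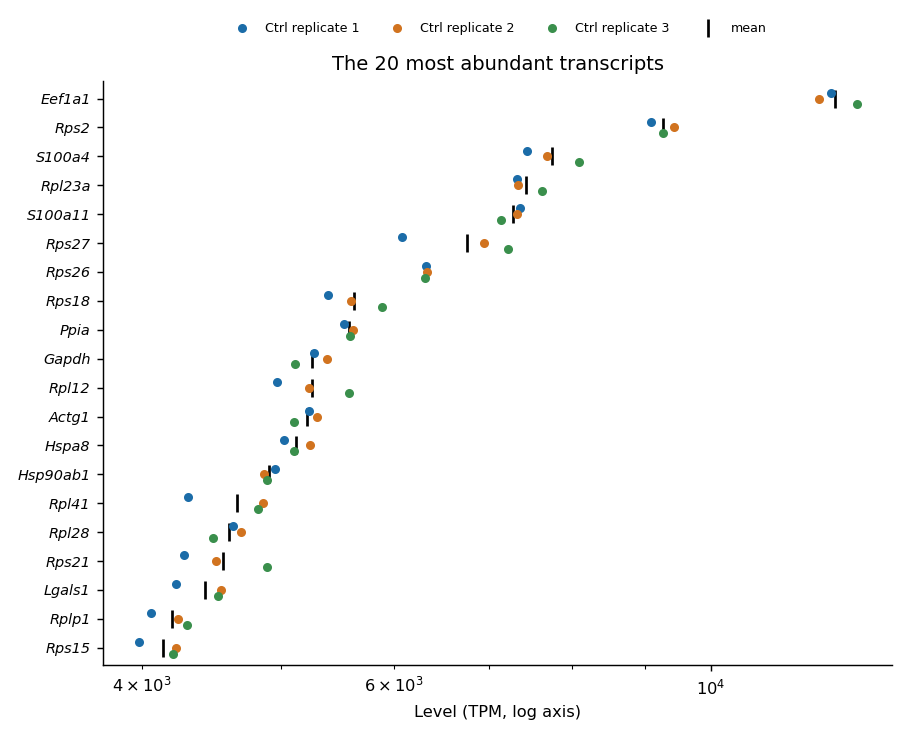
Level of the 20 most abundant transcripts in TPM (horizontal log axis), 1 point for each of the 3 Ctrl libraries and a bar at the mean. Eef1a1 stands highest at 12231 TPM on average, and many neighbours further down the order overlap.

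The order differed when reads were not divided by length. The effective length that a gene's count and FPKM imply was under 200 bases for 9 of the 20 genes, and for 163 of the 11243 expressed genes. Rps27 had the shortest, at 47.7 bases: its mean count of 3471 was the 1101st of the table, yet its level of 6748 ± 592 TPM was the sixth. Counted in reads, not per length, the 20 highest genes held 7.20% of the counts, and 6 genes were in both sets of 20. Many of these genes also have processed copies in the genome. Of the 50-base stretches of each gene's transcripts in GENCODE M21, 39.4% were shared with another gene for Eef1a1 and 43.0% for Rps2. The share was 47.4% for S100a4 and 24.7% for Gapdh. The sharing gene may be a processed copy or any other gene, which was not separated here. The part that the division of shared reads had in these levels was not tested. The counts of S100a4 were whole in every library (13809, 14608 and 14648), while those of Gapdh were not in replicates 1 and 3 (61221.7 and 60658.8).

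Taken as lists, mesenchymal markers were expressed at higher levels than epithelial and intestinal ones in the untreated cells. The epithelial list did not hold Krt14, a keratin of basal stratified epithelium, which was at 318 TPM. Of 25 mesenchymal markers, 19 were expressed, with a median of 25.9 TPM over the list, against 10.2 TPM over all genes. Of 29 epithelial and intestinal markers, 21 were listed, 4 of those were expressed, and their median was 0.0333 TPM. Krt20, Cdx2, Ascl2, Cldn3, Car1, Slc26a3, Esrp1 and Tff3 were not analysed here. Most colon epithelial markers were therefore under the limit in these libraries, although the label names a colon adenocarcinoma. The name MC38 is taken from the label, and the study's methods state that its cell lines were checked by short tandem repeats. These marker levels do not test the identity of the line.

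Vim, the vimentin gene, was at 2982, 2865 and 2909 TPM. Sparc, a secreted matrix glycoprotein, was at 1268, 1214 and 1185 TPM, and the ranges of Vim and Sparc did not overlap. The factor Twist2 was at 174, 160 and 159 TPM, with Twist1 at 32.8 ± 1.43 TPM. Snai1 at 25.9 ± 0.155, Snai2 at 26.0 ± 0.794, Zeb1 at 15.8 ± 1.29 and Zeb2 at 13.9 ± 0.316 TPM completed the factors known for repressing epithelial genes, and all 6 were expressed in every library. Fibronectin (Fn1) was at 116 ± 3.05 TPM and Prrx1, a limb and craniofacial mesenchyme factor, at 92.3 ± 3.32 TPM.

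The collagens were uneven. Col1a2 was at 248 ± 10.7 TPM and Col3a1 at 150.2 ± 9.72 TPM, while Col1a1, whose product joins that of Col1a2 in type I collagen, was at 7.88, 7.27 and 6.54 TPM. Fibroblast markers were not all present either: Thy1 and Lum were at 0 counts in every library, Fap had 1 count in all, and Tagln, Dcn and Postn stayed under 1 TPM at 0.297 ± 0.134, 0.833 ± 0.215 and 0.223 ± 0.0709 TPM. Other fibroblast and smooth muscle genes were expressed, such as Pdgfrb at 32.6 ± 2.0 TPM and the smooth muscle actin Acta2 at 62.4 ± 1.08 TPM, so the fibroblast and smooth muscle genes of the list lay on both sides of the limit.

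Among the epithelial markers, Epcam, Cdx1, Cldn4, Cldn7 and Fabp2 had no count in any library. Summed over the 3 libraries, Krt8 had 8 counts (exact Poisson interval at 95%, 3.45 to 15.8) and Krt18 had 1 (0.0253 to 5.57), of 54623558 in all. These keratins pair in the filaments of simple epithelia. Vil1, a brush border protein, had 2 counts, and Muc2, the goblet cell mucin, had 7. The 4 expressed members were Tjp1 at 92.2 ± 2.46 TPM, a junction scaffold that many attached cells use, Klf5 at 10.9 ± 1.93 TPM, a factor of proliferating crypt cells, Cdh1 at 2.52 ± 0.280 TPM and Krt19 at 2.25 ± 0.825 TPM. Cdh1, the E-cadherin gene, was at 2.75, 2.21 and 2.61 TPM, and Cdh2, the N-cadherin gene, at 23.2, 21.4 and 23.5 TPM. The ranges of these cadherins were far apart, with Cdh2 the higher in all 3 libraries.

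Markers of other cell types were low. In such bulk libraries, few cells of a type and little RNA per cell cannot be told apart. Ptprc, the pan-leukocyte antigen CD45, had 7 counts in all, and Csf1r had none. Of the 10 leukocyte markers listed, 3 were expressed: Cd14 at 7.08 ± 0.760, Cd68 at 7.05 ± 0.298 and Lyz2 at 1.02 ± 0.265 TPM. None of the 5 endothelial markers listed reached 1 TPM, the highest being Pecam1 at 0.713 ± 0.267 TPM. Of 3 melanocyte markers listed, only Mitf did, at 2.28 ± 0.367 TPM. The summed levels were 15.5 TPM for the 10 leukocyte markers, 1.14 TPM for the 5 endothelial markers and 12912 TPM for the 25 mesenchymal markers, of which S100a4 alone gave 7739 TPM and Vim 2919 TPM. The plot of cell type markers shows these blocks beside each other.

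**Figure D3:**
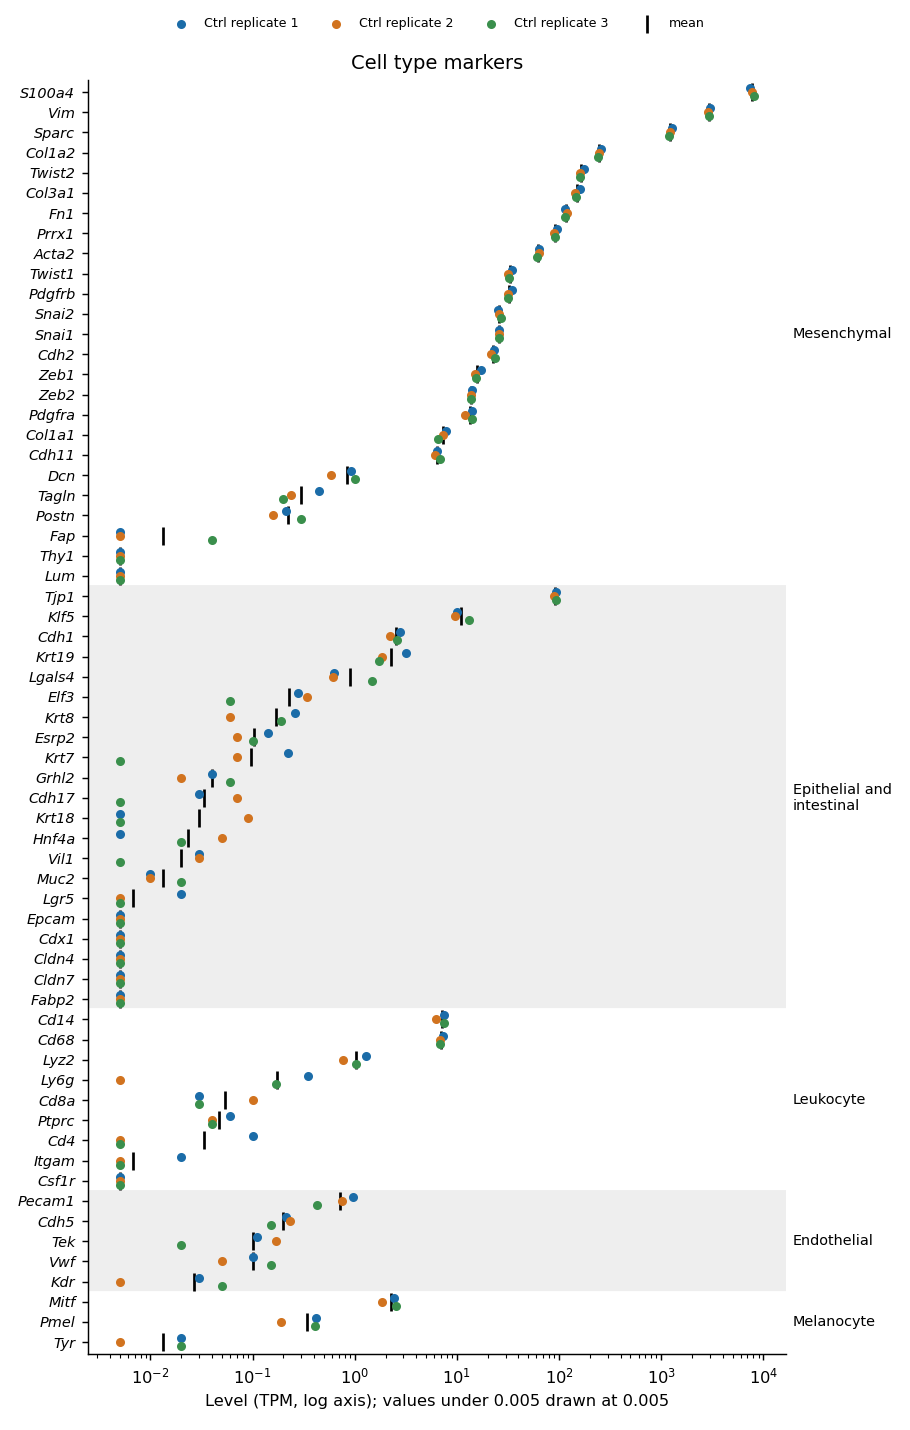
Level of cell type markers in TPM (horizontal log axis, values under 0.005 drawn at 0.005), 1 point for each of the 3 Ctrl libraries and a bar at the mean, in blocks by list, with 1 leukocyte marker not drawn. Of the mesenchymal markers 19 of 25 lie at 1 TPM or more, against 4 of 21 epithelial and intestinal markers.

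The ERBB receptors are tyrosine kinases that signal as pairs once a growth factor of the EGF family binds. Erbb2, which has no known ligand of its own, was at 25.1, 23.6 and 22.1 TPM. Erbb3, its usual partner, whose own kinase is weak, was at 5.81, 6.17 and 7.10 TPM. Erbb2 was 3.71 times Erbb3 and higher in 3 of 3 libraries, with ranges that did not overlap. The exact sign-flip test over 3 libraries gave p = 0.25, two-sided, which is the smallest it allows. Egfr was at 0, 0.03 and 0.08 TPM, with 4 counts over the 3 libraries (exact Poisson interval at 95%, 1.09 to 10.2), so at this depth it was within the limit of 3 counts in each library. Erbb4 was not analysed here.

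Of 10 ERBB ligands listed, 5 were expressed. Nrg1, a ligand of Erbb3 and Erbb4, was the highest at 11.9, 11.04 and 11.4 TPM, followed by Hbegf, which binds Egfr and Erbb4, at 8.88, 10.7 and 9.56 TPM. Btc was at 2.27 ± 0.251, Ereg at 1.73 ± 0.280 and Tgfa at 1.10 ± 0.273 TPM. Egf was at 0.683 ± 0.206 TPM, under the limit, and Epgn had no count. The ligands expressed thus included neuregulin and several that are known as Egfr ligands.

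Of 30 other receptor tyrosine kinases, 18 were expressed. Axl, the receptor for the vitamin K dependent ligand Gas6, was by far the highest at 480, 469 and 463 TPM. Epha2, an ephrin receptor, was at 136 ± 4.82 TPM, and Ddr2, a receptor for fibrillar collagen, at 83.0 ± 1.87 TPM. Fgfr1 at 55.6 ± 2.35 and Ddr1 at 48.8 ± 0.642 TPM followed. Met, the hepatocyte growth factor receptor, was at 32.2 ± 1.18 TPM and Pdgfrb at 32.6 ± 2.0 TPM, and these neighbours could not be ordered, since their ranges overlapped (exact sign-flip p = 0.75, two-sided). Fgfr2, Fgfr4, Flt3, Csf1r, Ntrk3, Ros1 and Alk had no count in any library.

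Both chains of the interferon gamma receptor were expressed, Ifngr1 at 63.6 ± 2.52 and Ifngr2 at 42.9 ± 0.408 TPM, with the kinase Jak1 at 78.7 ± 1.32 TPM and Jak2 at 19.8 ± 0.596 TPM. Of 18 genes of interferon reception and JAK-STAT signalling, 16 were expressed, and Irf8 and the lambda receptor chain Ifnlr1 were not. Irf1, a factor that interferon gamma induces, was at 57.9 ± 3.45 TPM. Of 24 other cytokine and TNF family receptors, 19 were expressed. Tnfrsf12a, the receptor of TWEAK, led these at 278, 289 and 278 TPM, and Tnfrsf1a was at 68.3 ± 2.39 TPM. Of 11 TGF-beta and BMP receptors 10 were expressed, with Bmpr1a at 47.5 ± 2.09 and Tgfbr2 at 30.6 ± 1.41 TPM.

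Of the 15 Toll-like receptors, nucleic acid sensors and adaptors listed, 12 were expressed, with a list median of 6.54 TPM, below the 10.2 TPM of all genes. The adaptor Mavs was at 31.8 ± 0.713, Myd88 at 23.8 ± 0.132 and Sting1 at 20.2 ± 0.405 TPM. The DNA sensor Cgas was at 6.16, 5.44 and 5.65 TPM and the RNA sensor Ifih1 at 4.58 ± 0.415 TPM. Among the Toll-like receptors Tlr4, which senses lipopolysaccharide, was the highest at 16.4 ± 0.153 TPM, and Tlr9 had no count. Of 7 chemokine receptors listed, only the scavenging receptor Ackr3 was expressed, at 91.2 ± 1.17 TPM, and Cxcr4 had 2 counts in all.

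The secreted factors were led by Ccl2, a chemokine that draws monocytes, at 1686, 1778 and 1730 TPM. Mif, a cytokine of macrophages and many other cells, was at 1311 ± 59.4 TPM, with 34.1% of its stretches shared with other genes. The matrix phosphoprotein Spp1 was at 424 ± 17.8, the macrophage growth factor Csf1 at 162 ± 6.96, the related chemokine Ccl7 at 157 ± 8.69 and the neutrophil chemokine Cxcl1 at 149 ± 4.75 TPM. Of the T cell chemokines induced by interferon gamma, Cxcl10 was at 16.1, 14.4 and 14.5 TPM, whereas Cxcl9 had 1 count in all. Tgfb1 was at 66.8 ± 3.29 and Vegfa at 58.2 ± 2.0 TPM. Il33 and Cxcl12 had no count, and Il6 had 3 in all. Altogether, 24 of the 34 factors listed were expressed.

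Cells present peptides on MHC class I molecules, which carry beta-2 microglobulin, a heavy chain and a peptide that the Tap transporter has moved into the endoplasmic reticulum. All 19 class I genes listed were expressed, each at 10 TPM or more, with a median of 57.5 TPM. B2m was at 3059, 3067 and 3044 TPM, a narrow range for so abundant a transcript. The heavy chain H2-D1 was at 997, 990 and 975 TPM and H2-K1 at 537, 537 and 518 TPM. H2-D1 was 1.86 times H2-K1 and higher in 3 of 3 libraries (exact sign-flip p = 0.25, two-sided, the smallest possible). These heavy chains share sequence, with 12.8% and 9.63% of their stretches found in another gene.

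Within class I presentation, the general chaperones stood above the peptide transporter and the immunoproteasome. Calr at 1705 ± 34.2, Pdia3 at 909 ± 20.1 and Canx at 618 ± 5.62 TPM have many clients besides class I. The peptide loading factor Tapbp was at 115 ± 4.07 TPM, Tap2 at 30.7 ± 2.86 TPM and Tap1 at 18.7, 17.5 and 16.3 TPM. The immunoproteasome subunits were at 57.5 ± 2.18 TPM for Psmb8, 37.1 ± 1.93 TPM for Psmb10 and 14.1, 11.1 and 13.9 TPM for Psmb9. Nlrc5, the transcriptional activator of class I genes, was at 10.6 ± 0.171 TPM.

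The class II pathway, which professional antigen presenting cells use, was mostly under the limit of expression. Of 12 genes listed, 4 were expressed, 6 had at most 3 counts in every library, and 2 of these 6 had none. The chains H2-Aa and H2-Eb1 had no count, H2-Ab1 had 3 counts in all, and Ciita, the activator of class II genes, was at 0.09, 0.03 and 0.09 TPM. The expressed members were the lysosomal protease Lgmn at 122 ± 1.98, H2-DMb1 at 29.7 ± 2.14, H2-DMa at 4.72 ± 0.247 and Cd1d1 at 1.42 ± 0.484 TPM. Cd1d1 was counted in this list, although it encodes a class I-like molecule and not a part of the class II pathway. Of the stretches of H2-DMb1, 22.7% were shared with another gene.

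Among ligands of immune checkpoints and co-stimulatory receptors, 11 of 20 listed were expressed. Cd274, which encodes PD-L1, was at 1.96, 1.70 and 2.05 TPM, with 210 counts over the 3 libraries (exact Poisson interval at 95%, 183 to 240), and Pdcd1lg2, which encodes PD-L2, had no count. Higher levels were found for Lgals9, a lectin that binds Tim-3, at 188 ± 5.57 TPM, for Cd47, the signal against phagocytosis, at 77.3 ± 3.80 TPM, and for Pvr, a ligand of Tigit and CD96, at 67.6 ± 4.36 TPM. Cd276 was at 11.98 ± 0.132 TPM. The co-stimulatory ligand Cd80 was at 0.10, 0.10 and 0.33 TPM, below the limit of expression. Of 5 ligands of the natural killer receptor NKG2D, 3 were expressed: Raet1e at 69.5 ± 0.666, Raet1d at 32.4 ± 0.620 and Ulbp1 at 13.5 ± 0.636 TPM. The RAET1 genes are near copies of each other, with 44.7% of stretches shared for Raet1e and 55.8% for Raet1d. The plot of receptors and presentation genes sets the class I list beside the class II list and the checkpoint ligands. The class I list was all at 10 TPM or more, while the others reached from 0 to above 100 TPM.

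**Figure D4:**
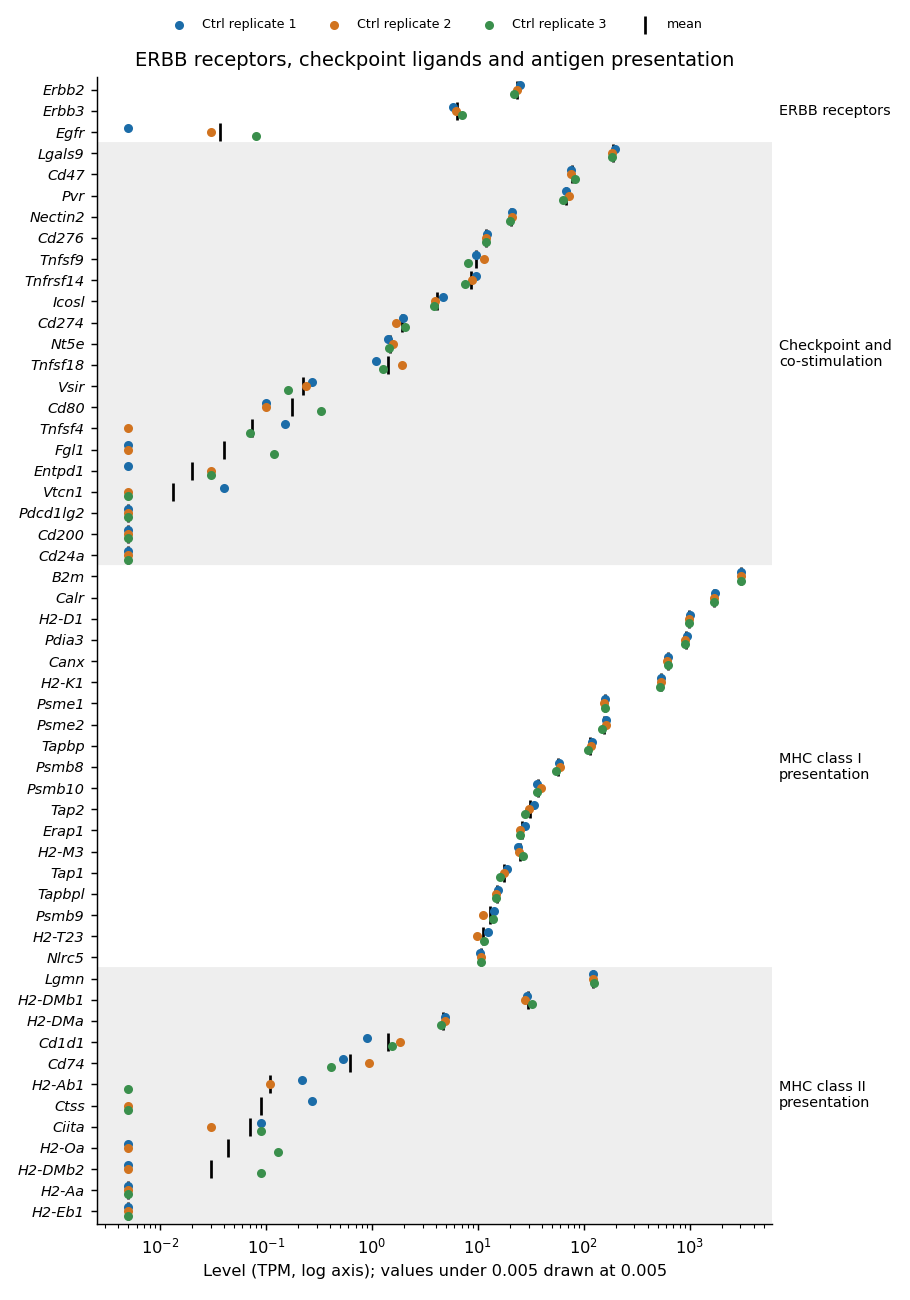
Level of ERBB receptors, checkpoint and co-stimulatory ligands and MHC class I and class II presentation genes in TPM (horizontal log axis, values under 0.005 drawn at 0.005), 1 point for each of the 3 Ctrl libraries and a bar at the mean. All 19 genes of the class I list lie at 10 TPM or more. In the class II list, which also holds the class I-like Cd1d1, 4 of 12 genes reach 1 TPM, as do 11 of 20 checkpoint ligands.

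In glycolysis and lactate handling, 20 of 28 genes listed were expressed, a share near the 68.1% of all genes, while the median of the list was 68.8 TPM against 10.2 TPM over all genes. Gapdh, Eno1 at 3486 ± 77.9, Pkm at 2470 ± 85.6 and Ldha at 2068 ± 40.5 TPM were the highest. At some steps with several isozymes a single gene made up nearly all of the level. Ldha was at 2093, 2022 and 2090 TPM and its partner Ldhb, the other lactate dehydrogenase chain, at 0.49, 0.57 and 0.47 TPM. The glucose transporter Slc2a1 was at 81.3, 76.6 and 74.4 TPM, whereas Slc2a3 had 3 counts in all. Hk1 at 71.7 ± 4.17 and Hk2 at 24.1 ± 1.0 TPM were both expressed, and Hk3 had no count. Aldoa was at 948 ± 22.8 TPM, with Aldoc at 6 counts in all. Sharing of stretches reached 53.9% for Pgk1, 26.0% for Eno1 and 25.8% for Pkm.

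Of 28 genes of pyruvate dehydrogenase and the TCA cycle, 27 were expressed, with a median of 116 TPM. Mdh2 was the highest at 365 ± 8.77, followed by Cs at 251 ± 6.95 and Sdhc at 239 ± 3.92 TPM. Pdha1, the catalytic chain of pyruvate dehydrogenase, was at 152, 152 and 151 TPM. Of the kinases that switch this enzyme off, Pdk3 was at 51.3 ± 1.82, Pdk1 at 38.1 ± 1.16 and Pdk2 at 6.84 ± 0.846 TPM, and Pdk4 had no count. All 17 genes of glutamine, serine and one-carbon metabolism were expressed. Phgdh, which commits glycolytic carbon to serine, was at 637, 650 and 608 TPM, Psat1, the next enzyme, at 591, 587 and 602 TPM, and the asparagine synthetase Asns at 365 ± 7.31 TPM.

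The pentose phosphate pathway and related NADPH sources had 12 of 14 genes expressed, with Nadk at 225 ± 3.74, Taldo1 at 224 ± 3.71 and Pgd at 194 ± 10 TPM, and G6pdx, the entry enzyme, at 94.1 ± 2.29 TPM. Of 19 genes of lipid and cholesterol metabolism 18 were expressed. The desaturase Scd2 was at 245 ± 8.29 TPM, the citrate lyase Acly at 142 ± 1.88 TPM and the squalene epoxidase Sqle at 136 ± 3.01 TPM.

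Of 33 genes of cystine, glutathione and thioredoxin metabolism 29 were expressed, with a median of 72.2 TPM against 10.2 TPM over all genes. The peroxiredoxin Prdx1, a thiol peroxidase, was at 1093, 1092 and 1149 TPM, and thioredoxin Txn1 at 742, 785 and 786 TPM. The glutathione transferase Gstp1 was at 717 ± 12.6 TPM. Gpx4, the peroxidase that reduces lipid peroxides, was at 557, 569 and 561 TPM, with 34.7% of stretches shared. The cystine antiporter Slc7a11 was at 33.2, 31.8 and 32.5 TPM, and Slc3a2, the heavy chain that it and other transporters need, at 195, 197 and 188 TPM. Gpx2, the intestinal glutathione peroxidase, had no count, and Gpx3 had 2 in all.

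In superoxide, NRF2 and iron handling 15 of 16 genes were expressed. The ferritin chains Ftl1 at 3227 ± 31.3 and Fth1 at 2060 ± 41.0 TPM were the highest, with 50.9% of stretches shared for Ftl1. Sod1 was at 529 ± 24.2 and the transferrin receptor Tfrc at 204 ± 0.507 TPM. Nfe2l2, the gene of NRF2, was at 51.5 ± 0.562 TPM and its inhibitor Keap1 at 22.1 ± 1.10 TPM, and Slc40a1, the iron exporter, had no count. Of 16 copper and metallothionein genes 14 were expressed. Mt1 was at 767, 789 and 734 TPM and Mt2 at 655, 694 and 663 TPM, which made Mt1 1.14 times Mt2 and higher in 3 of 3 libraries (exact sign-flip p = 0.25, two-sided, the smallest possible). The copper chaperone Atox1 was at 418 ± 7.41, the importer Slc31a1 at 41.1 ± 1.79 and the exporter Atp7a at 6.61 ± 0.163 TPM.

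Cuproptosis is a form of death in which copper binds lipoylated proteins of the TCA cycle, and disulfidptosis one in which disulfides build up in the actin network. All 10 cuproptosis genes listed were expressed, with Fdx1, which acts upstream of lipoylation, at 22.4, 22.6 and 20.6 TPM, the lipoyl synthase Lias at 20.2 ± 0.201 TPM and Dlat, a lipoylated subunit, at 49.2 ± 0.595 TPM. Of 29 disulfidptosis and actin genes 28 were expressed, with a median of 181 TPM. Actb was at 2368 ± 61.5, Myl6 at 1525 ± 54.6, the crosslinker Flna at 479 ± 15.98 and the myosin Myh9 at 268 ± 6.12 TPM. Myh10, the other common non-muscle myosin, had 5 counts in all.

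Genes of cell division were expressed throughout, 24 of 24, with a median of 203 TPM. Pcna was at 1058, 1049 and 1126 TPM, Ccnd1 at 682, 667 and 655 TPM and Top2a at 621, 603 and 619 TPM, and the proliferation antigen Mki67 was at 182 ± 4.55 TPM. All 10 DNA mismatch repair genes listed were expressed, with Msh6 at 117 ± 5.88 and Pms2 at 16.6 ± 0.840 TPM. Transcript levels carry no information on coding changes in these genes. Of 20 colorectal cancer drivers listed, 18 were expressed. Ctnnb1 was at 504 ± 5.74, Trp53 at 258 ± 14.9 and Myc at 128 ± 0.904 TPM, and Apc was at 13.3 ± 0.455 TPM. The Wnt target Axin2 was under the limit at 0.740 ± 0.111 TPM. Cdkn2a and Cdkn2b were not analysed here. All 15 immediate early genes were expressed, from Fos at 1.22, 1.13 and 0.72 TPM to Jun at 117 ± 3.08 TPM.

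The replicates differed little. For 9970 genes with a mean of at least 100 counts, the median coefficient of variation was 3.55%, against 3.51% from counting alone. It exceeded 10% for 541 of these genes, 20% for 21 and 50% for 1. A coefficient of variation from 3 values tends to come out low, so the median cannot be read as counting error alone. For genes of 10 to 100 counts the median, 15.1%, was under the 16.7% from counting. The common coefficient of variation beyond counting, estimated by edgeR over 11570 genes, was 2.41%. Its effect showed at depth: above 10000 counts the median was 1.82% over 238 genes, against 0.817% from counting. Chi-square per degree of freedom lay between 1.86 and 2.02 for the pairs of libraries, so no pair agreed within sampling noise and the libraries were counted as 3.

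**Figure D5:**
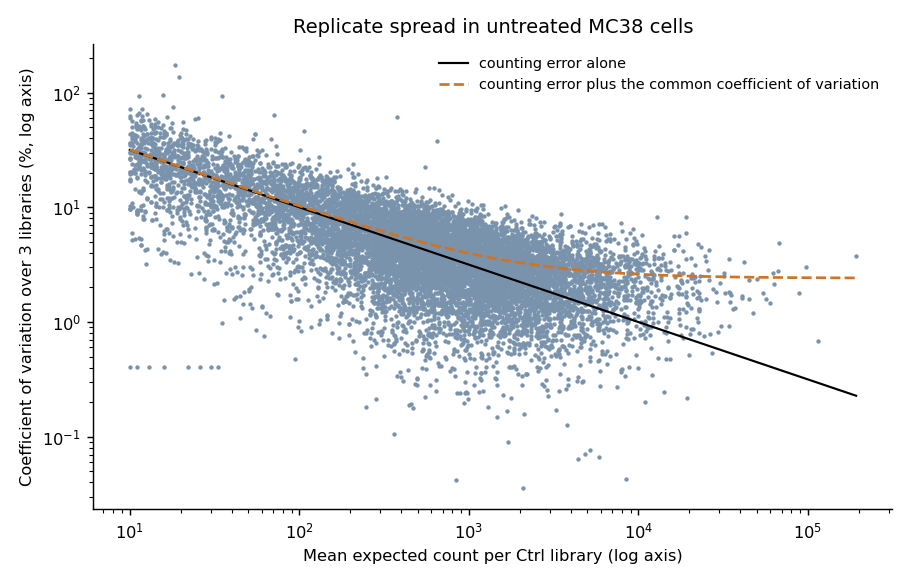
Coefficient of variation of each gene over the 3 Ctrl libraries in percent against its mean expected count per library (both log axes, genes with a mean of at least 10 counts), with the counting error alone as the solid line and counting error plus the common coefficient of variation of 2.41% as the dashed line. The cloud lies about the counting line at low counts and levels off above it at high counts. At 10 to 100 counts its median was 15.1%, against 16.7% from counting.

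Of the 10 genes of highest spread, several share most of their sequence with another gene. 2210418O10Rik had counts of 112, 493 and 532 and a coefficient of variation of 61.1%, and Gm14296 had 933, 493 and 532 (37.6%). All of the stretches of the former and 56.1% of those of the latter were shared. Their summed count was 1045, 986 and 1063, with a coefficient of variation of 4.3%, so the pair varied little as a sum and much as single genes. Gm4767 (45.7%, 97.0% shared), Moap1 (31.9%, 84.3% shared) and Rsc1a1 (23.7%, 100% shared) also shared most of their stretches, and the part that shared sequence had in their spread was not tested. Cebpb, a factor of inflammatory and differentiation programmes, shared no stretch and had counts of 442, 533 and 688 (22.5%). The rest of the 10 were Gm20594 at 27.6%, Acy3 at 26.2%, Crb1 at 23.8% and Sergef at 22.4%. The 5 genes of lowest spread were Psmd13, Stx6, Cap1, Ccnb1 and Spcs3, each under 0.1%.

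A small trend with length separated the libraries. It was computed over the 9970 genes with a mean of at least 100 counts. The 354 of them under 500 effective bases lay at a median log2 CPM deviation of -0.03 in replicate 1 and 0.03 in replicate 2. Those of 4000 bases or more lay at 0.01 and -0.01. Replicate 3 lay between in both of these classes, at 0.004 for the short genes. It was the lowest at 1000 to 2000 bases (-0.008) and at 2000 to 4000 bases (-0.006). Short genes among the 20 most abundant, given here in TPM and not CPM, did not all follow this trend. Rps27 had 6084 TPM in replicate 1 against 6943 and 7219. By contrast S100a11 had 7360 against 7321 and 7129, and Rps26 had 6325 against 6329 and 6311. The part of library preparation in this trend was not tested.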

How the data were processed

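Gene expression of 3 untreated (Ctrl) libraries of MC38 cells was described, with groups taken from the sample labels. RNA was selected by its poly(A) tail; the labels name a FastPure kit and DNA nanoball sequencing, and the study's methods TRIzol and an Illumina instrument. The submitters' processing notes name HISAT2 2.1.0, Bowtie2 2.3.4.3, RSEM 1.3.1 and the builds GRCm39 and GRCh38.p13, without their roles. The authors deposited expected counts per gene, which RSEM divides among similar genes (about 10% of values were not whole), FPKM, and TPM, which sums to 1000000 in each library. The rule by which genes were listed is not given in the sources used here, so a gene that is not in the table was called not analysed here (47 genes of the lists). A further 27 columns of per-sample values (the treated libraries, and the normalized counts of Ctrl) and 12 columns of group averages were not used.

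Mean and SD of TPM were computed over the libraries with pandas 2.3.3, and a gene was called expressed at a mean of at least 1 TPM. No treated library was compared, so no test across genes was made. Effective length was computed from count and FPKM. Counts were rounded to whole numbers for edgeR 4.0.16 (TMM scaling, intercept only), whose estimate was checked on simulated data. Differences between genes were tested within libraries by an exact two-sided sign-flip test. Stretches of 50 bases shared between genes were counted in GENCODE M21 transcripts (GRCm38). Promoters (RefSeq, GRCm38.p6) matched 12889 of 16509 genes, 78.1%, under the 80% needed, so the planned check of promoter features by level was void.

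The genes named were members of lists (those of highest TPM and the defining ones), the 20 most abundant genes, and the 10 of highest and 5 of lowest spread. Members and lists were chosen with earlier results of these data known, and the gene families in the closing section and the promoters shown were chosen after values were seen. Alternatives were other expression limits, units, scalings and filters, and leaving out each library. Some members of the lists are counted but not reported here by name.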

Additional observations from a re-analysis of the deposited data

How the results depend on the processing

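No paired analysis was possible because only 1 group was described. The number of silent genes rested on its definition: 1557 at a count of 0 in every library, 3623 at no more than 3 counts in every library and 3539 under a mean of 0.1 TPM. Without 1 library it was 1896 to 1952. The number of expressed genes was 9658 to 11751 over the other limits and units, and 11215 to 11252 without 1 library. The share on the 20 and 100 most abundant genes was 12.1% and 32.4% of TPM, 7.20% and 17.3% of counts, and 11.8% and 29.8% of TPM without genes under 200 effective bases, an alternative added after seeing the data. Without 1 library these shares were 11.9% to 12.2% and 32.2% to 32.8%. The common coefficient of variation was 2.40% to 2.42% under other scalings and filters, and 2.24% to 2.56% without 1 library. The median SD of log2 TPM was 0.06 with either pseudocount. Of 39 genes, all 117 levels without 1 library stayed within 1 SD. Their ranks moved by no more than the SD of the rank over libraries for 38 genes by FPKM and for 3 by CPM, which is not per length. The promoter alternative was not run, since the match was void. Depth limits statements on genes with few counts: at or under 3 counts in a library, a level and its lack cannot be told apart.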

Other observations

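Gene families that the lists did not cover added to the picture of identity. Each family was counted over its listed members only, so genes that were not listed are missing from its total. Of 34 Hox genes listed, which record position along the body axis, 32 were expressed. Most were at low levels: 9 reached 10 TPM, and the family median was 3.86 TPM, against 10.2 TPM over all genes. The highest were Hoxd8 at 43.3 ± 1.3, Hoxb9 at 40.0 ± 2.18 and Hoxc10 at 36.0 ± 1.84 TPM (mean ± SD, n = 3). Of 26 keratins 6 were expressed. Krt14, a keratin of basal stratified epithelium, was at 318 ± 6.03 TPM, with 13.9% of its stretches shared with another gene, and Krt80 at 49.0 ± 2.27 TPM, far above the simple keratins. Of 18 claudins only Cldn12 was expressed, at 48.8 ± 1.70 TPM. Among 19 cadherins Cdh13, which has no cytoplasmic tail, was the highest at 53.6 ± 1.65 TPM. Of 12 Sox factors 6 were expressed, with Sox9 at 83.3 ± 3.55 TPM, and of 14 Wnt ligands 4 were, with Wnt10b at 38.3 ± 2.32 and Wnt5a at 17.1 ± 0.917 TPM.

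Matrix and adhesion families, again counted over listed members only, were expressed in part. Of 37 collagens 19 were expressed, with Col6a1 the highest at 325 ± 11.1 TPM. Col6a2 at 249 ± 9.03 and Col1a2 at 248 ± 10.7 TPM followed, level within their spread, and then Col6a3 at 211 ± 5.48 TPM. Of 11 laminins 6 were expressed, with Lamb1 at 118 ± 3.04 and Lamc1 at 106 ± 1.84 TPM. Of 23 integrins 11 were, with Itgb1 at 506 ± 6.32, Itgb5 at 218 ± 6.36 and Itgb7, known from lymphocytes, at 172 ± 8.06 TPM. Mmp2, a gelatinase, was at 499.7 ± 12.4 TPM, and 7 of 16 matrix metalloproteinases were expressed. The calcium-binding S100 and annexin families held 2.15% and 0.789% of all TPM, with Anxa2 at 3975 ± 70.4 and S100a6 at 3227 ± 35.4 TPM. Among sensory receptors, 1 of 49 olfactory genes listed (Olfr1033 at 4.31 ± 0.270 TPM) and 0 of 35 vomeronasal genes listed reached 1 TPM. The Y-linked Eif2s3y was at 0.51, 0.53 and 0.46 TPM, under the limit of expression, while Uty had no count. The expected counts of Eif2s3y were not whole (28.21, 29.99 and 26.06), with 0% of its stretches shared with another gene. Xist, Ddx3y and Kdm5d were not analysed here.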
